A study of Homo sapiens with 8 samples.

Results

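The regions described here are stretches of DNA that were accessible in cardiac progenitors and were not detected as accessible at any other stage. ATAC-seq, in which the Tn5 transposase inserts sequencing adapters into open DNA, was applied to the established human line RUES2, which was taken from embryonic stem cells to cardiomyocytes in culture. The study sampled stem cells at day 0 (hESC) and mesoderm at day 2 (MES), then the progenitors at day 5 (CP) and, last, cardiomyocytes at day 14 (CM). Each stage had 2 replicate libraries. The hESC cells had already received the GSK3 inhibitor CHIR-99021 for a day when they were taken, since it was added on the day before. The MES cells had a higher dose of CHIR-99021 from day 0. The CP cells were left in it until day 3 and then had the Wnt inhibitor Xav-939 until they were collected, and the CM cells went on without inhibitors and from day 7 with the B27 supplement. All values come from this single line. No sort is stated, so each library can hold every cell type of its wells, and more cells with an open site and more access per cell cannot be told apart. Peaks of the 8 deposited lists on chromosomes 1 to 22 and X were merged where they touched or overlapped, which gave 285853 regions. A CP-only region is a merged region with a peak in both CP libraries and in none of the other 6. There were 2083 of them, 0.729% of all merged regions and 3.05% of the 68342 regions with a peak in both CP libraries. As this is the rule itself, these shares describe the set and test nothing.

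Cardiac progenitors are the cells that leave the early mesoderm with the transcription factors of the heart already engaged but without a contractile apparatus. GATA4, GATA5 and GATA6 bind the letters GATA, often with a further A. ISL1, HAND1, HAND2, TBX5, TBX20, NKX2-5 and MEF2C act with them, and the TALE factors MEIS1 and MEIS2 bind TGACAG. Much of this binding takes place far from promoters, at enhancers, which become accessible to the transposase when they are bound. An ATAC-seq peak reports the access and not the factor, and it says nothing on its own about expression.

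The sequences of the 6 strongest CP-only regions are shown first, because they are the clearest examples of the set. Strength is the −log10 q-value in the weaker of the CP libraries. Then follow the strongest region of a cluster of 3 near PRSS58 and, chosen after its values were seen, the stronger of a pair of regions near ISL1, the LIM homeodomain factor that defines the second heart field. Each sequence is 200 bp of hg38 around the summit, on the forward strand, with the GATA word GATAA and the MEIS word TGACAG in capitals on either strand (reverse complements TTATC and CTGTCA). A region is called by the gene with the nearest protein-coding transcription start site (TSS).
near MMADHC, chr2:149686747-149686946: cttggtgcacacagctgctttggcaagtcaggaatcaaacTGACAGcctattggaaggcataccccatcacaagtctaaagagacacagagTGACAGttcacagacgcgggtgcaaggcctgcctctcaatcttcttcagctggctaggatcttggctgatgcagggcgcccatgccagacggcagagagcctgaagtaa
in an intron of IL1RAPL2, chrX:105044082-105044281: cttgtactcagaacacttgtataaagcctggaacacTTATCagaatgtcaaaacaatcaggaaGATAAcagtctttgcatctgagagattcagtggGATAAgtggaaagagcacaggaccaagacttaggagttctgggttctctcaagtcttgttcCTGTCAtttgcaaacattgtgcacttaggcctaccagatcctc
near RBMXL2, chr11:7154821-7155020: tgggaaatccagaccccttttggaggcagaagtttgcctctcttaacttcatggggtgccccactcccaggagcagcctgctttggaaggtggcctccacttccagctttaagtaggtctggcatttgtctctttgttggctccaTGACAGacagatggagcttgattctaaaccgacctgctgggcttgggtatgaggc
in an intron of TMEM178A, chr2:39711422-39711621: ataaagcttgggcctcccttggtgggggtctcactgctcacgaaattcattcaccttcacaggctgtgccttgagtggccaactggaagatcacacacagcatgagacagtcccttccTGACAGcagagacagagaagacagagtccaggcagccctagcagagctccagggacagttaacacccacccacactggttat
near CENPC, chr4:67345085-67345284: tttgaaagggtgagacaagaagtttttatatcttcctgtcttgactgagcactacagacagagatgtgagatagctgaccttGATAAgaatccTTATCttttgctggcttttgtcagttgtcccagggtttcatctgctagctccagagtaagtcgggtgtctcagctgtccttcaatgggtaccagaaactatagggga
near CCDC179, chr11:23438957-23439156: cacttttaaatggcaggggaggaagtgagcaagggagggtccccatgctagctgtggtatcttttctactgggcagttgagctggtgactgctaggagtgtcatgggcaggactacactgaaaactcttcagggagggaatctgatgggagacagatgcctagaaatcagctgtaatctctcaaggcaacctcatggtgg
in the cluster near PRSS58, chr7:142487161-142487360: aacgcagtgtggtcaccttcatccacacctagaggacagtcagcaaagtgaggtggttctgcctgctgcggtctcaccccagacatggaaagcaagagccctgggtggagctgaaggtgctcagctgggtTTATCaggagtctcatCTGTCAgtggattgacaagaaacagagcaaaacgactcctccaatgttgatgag
near ISL1, chr5:51381891-51382090: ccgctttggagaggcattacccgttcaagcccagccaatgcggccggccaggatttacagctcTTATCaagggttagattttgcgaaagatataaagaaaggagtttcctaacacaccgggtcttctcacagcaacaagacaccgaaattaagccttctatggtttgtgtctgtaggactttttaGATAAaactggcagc
The window in IL1RAPL2, a gene of the interleukin-1 receptor family, held 3 GATA words and 1 MEIS word. The window near MMADHC held 2 MEIS words and no GATA word. The windows near CENPC and ISL1 held 2 GATA words each, and the window near CCDC179 held neither word.

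The strongest CP-only region lay 99069 bp from the TSS of MMADHC, a gene of vitamin B12 metabolism. Its fold over the local background was 9.34 in CP replicate 1 and 12.8 in CP replicate 2. The region in IL1RAPL2 had folds of 8.33 and 11.7, and the nearest TSS, that of TEX13A, was 176511 bp away. The region near RBMXL2 had folds of 7.90 and 12.9 and lay 65923 bp from its TSS. In each of these the second library was higher, as in 24 of the 25 strongest. The exception was an intronic region of CBLN2, a gene of synapse organization, with folds of 7.90 and 7.43. The 25 strongest had folds of 5.94 to 9.34 in CP replicate 1 and of 6.64 to 13.9 in CP replicate 2. Of them, 11 were in introns and 14 were intergenic, with none in a promoter or exon, and 13 had a protein-coding TSS within 100 kb. A GATA word was present in 9 and a MEIS word in 11, and 18 had at least 1 of these words.

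Among the 25 strongest, a region in an intron of ZFPM2, which encodes a cofactor of GATA4, lay 216830 bp from the nearest TSS, with folds of 7.48 in CP replicate 1 and 9.52 in CP replicate 2. A further region was 217367 bp from BMP4, a ligand that induces cardiac mesoderm, with folds of 6.40 and 6.64. A region 79272 bp from GAS1, a coreceptor of Hedgehog ligands, had folds of 7.05 and 13.9. A region 611280 bp from SPRY2, an antagonist of FGF signalling, had folds of 6.84 and 8.83. The remaining ones within 100 kb were near TMEM178A, the flippase gene ATP8B4, SMARCAL1, LIMCH1, USP38, ATF7IP, SCYL3, FSCB and MFSD1. BMP4 and SPRY2 are over 100 kb away and had no CP-only region assigned, so that they mark a position only, as does the TSS nearest to the region in ZFPM2. The regions near ZFPM2, BMP4 and SPRY2 were picked after the values were seen. Some other regions of the 25 that lay over 100 kb from a TSS are not named.

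The CP-only regions were weaker than the other regions of the CP libraries. Their median fold was 3.98 in CP replicate 1 and 4.79 in CP replicate 2, against 5.13 and 6.64 for the 66259 other regions with a peak in both CP libraries and 6.58 and 8.31 for the 28115 regions with a peak in all 8. Their median −log10 q was 6.03 and 8.83, against 12.9 and 21.7 for the other regions in both. They were also narrower, with a median width of 332 bp against 621 bp. The width of a merged region grows with the number of peaks merged into it, and regions found only in hESC, MES or CM had median widths of 332, 336 and 360 bp. The 2 CP libraries ordered the CP-only regions less alike than the other regions. Across regions, which are not independent replicates, Spearman's rho of the folds was 0.473 (n = 2083) against 0.766 (n = 66259), in a set that also spans a smaller range of folds. Of the CP-only regions, 437 (21.0%) had the higher fold in CP replicate 1, against 17.2% of the others.

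**Figure D1:**
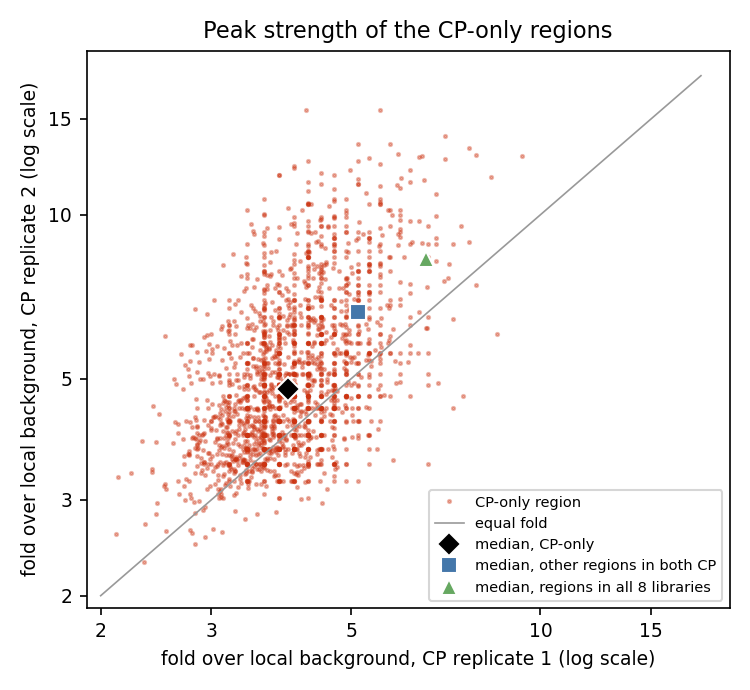
Fold of each of the 2083 CP-only regions over its local background in CP replicate 1 (x axis, log scale) and CP replicate 2 (y axis, log scale), with the line of equal fold. The diamond is their median (3.98 and 4.79), the square the median of the other regions in both CP libraries (5.13 and 6.64) and the triangle that of regions in all 8 libraries (6.58 and 8.31); the CP-only median lies lowest on both axes.

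CP had the smallest set of its own. By the same rule, 8597 regions were found in both hESC libraries only, 7901 in both MES libraries only and 3000 in both CM libraries only, which is 10.2%, 8.81% and 7.09% of the regions with a peak in both libraries of those stages, against 3.05% in CP. Many further regions failed the rule for CP by a single library. There were 2943 regions with a peak in both CP libraries and in exactly 1 other. The other library was MES replicate 2 for 1033 of them, CM replicate 1 for 797, hESC replicate 2 for 549, CM replicate 2 for 241, MES replicate 1 for 229 and hESC replicate 1 for 94. At each of the 3 other stages, the replicate with the longer list was the one that removed more. On these chromosomes the lists ran from 55777 peaks in CM replicate 2 to 156179 in MES replicate 2, with 99789 and 120133 in CP, and the lowest background of a list, recovered from the fold and p of its peaks and taken in place of depth since the lists hold no read counts, ran from 2.54 to 4.62 extended reads per position, with 3.68 and 3.30 in CP. With all lists shortened to the 55777 strongest peaks, 1242 CP-only regions were left. At the edge of the rule, the weakest CP-only region had a −log10 q of 2.44 in its weaker CP library, and among the 2943 regions the weakest peak that removed a region had a −log10 q of 2.51.

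Whether a region open in CP alone was again found in CP was asked by splitting the libraries by replicate number. Regions were found on the 4 replicate 1 lists and looked up in the 4 replicate 2 lists, and the reverse. Of 20097 regions with a peak only in CP among the replicate 1 lists, 26.7% (95% Wilson interval 26.1 to 27.3) had a peak in CP replicate 2. Nearly as many, 25.1% (24.5 to 25.7), had a peak in MES replicate 2 and 23.7% (23.1 to 24.3) in hESC replicate 2, while 3.91% had a peak in the short list of CM replicate 2. Of 23274 regions with a peak only in CP among the replicate 2 lists, 15.4% (14.9 to 15.9) had a peak in CP replicate 1 and 16.3% (15.9 to 16.8) in CM replicate 1, against 5.44% in MES replicate 1 and 3.62% in hESC replicate 1. These shares also follow how much of the genome each list covers. Over all regions of the 4 replicate 1 lists, 47.2% had a peak in CP replicate 2, 59.0% in MES replicate 2, 56.5% in hESC replicate 2 and 23.8% in CM replicate 2. Over all regions of the 4 replicate 2 lists, these shares were 34.4% in CP replicate 1, 29.6% in CM replicate 1, 39.6% in MES replicate 1 and 36.8% in hESC replicate 1. The share found again in CP was thus below that of all regions in both directions. From replicate 1 to replicate 2, 63.0% of hESC regions, 61.5% of MES regions and 21.6% of CM regions found in the same way had a peak again at their own stage. From replicate 2 to replicate 1, these shares were 23.4%, 27.3% and 40.1%. Only 11.0% of the regions found on replicate 1 and 9.41% of those found on replicate 2 had a peak in CP and in no other library on the other side. With 1 library per stage on each side, no test across libraries is possible, and the intervals cover counting error only.

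The CP-only regions were distal. Of 2083, 60 (2.88%, 95% Wilson interval 2.24 to 3.69) had their summit within 1 kb of a protein-coding TSS, against 8.23% of all merged regions and 24.3% of the other regions in both CP libraries. The regions of the other single stages were alike in this, with 2.37% in hESC, 2.19% in MES and 3.13% in CM. Introns held 41.9% of the CP-only regions, exons 2.35%, and 52.9% were intergenic. The median distance to a TSS was 58784 bp, against 22091 bp for the other regions in both CP libraries and 45065 bp for all merged regions. The 3 strongest promoter regions, picked after their values were seen, lay at KIAA1217 with folds of 5.74 in CP replicate 1 and 6.76 in CP replicate 2, at MYOZ3, which encodes a protein of the muscle Z-disc, with 4.21 and 4.10, and at OR51M1, an olfactory receptor gene, with 5.93 and 8.81.

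The words of GATA and MEIS factors were commoner in CP-only regions than in all merged regions, and those of NKX and MEF2 factors were not. The GATA word was present within 200 bp around the summit in 785 of 2083 CP-only regions, 37.7% (95% Wilson interval 35.6 to 39.8), against 22.7% of all merged regions. Regions found only in MES and only in CM had it more often, 42.2% (41.1 to 43.3) and 43.7% (42.0 to 45.5), and regions found only in hESC less often, 18.9%. The MEIS word was present in 25.3% of CP-only regions (23.5 to 27.3), against 16.8% of all, 12.3% of hESC-only, 14.7% of MES-only and 30.8% of CM-only regions. The CP-only value thus lay between MES and CM, with no overlap of intervals on either side. The forkhead word GTAAACA, bound by FOX factors, was present in 5.95% (5.02 to 7.05) against 3.42% of all, near the 6.89% of MES-only and above the 2.57% of CM-only regions. The NKX word AAGTG, bound by NKX2-5, was at its background, 38.6% against 38.3% of all merged regions, and reached 55.5% in CM-only regions. The MEF2 word, of a factor of muscle genes, was also at background in CP, 2.35% against 2.65% of all, and was present in 9.30% of CM-only regions. The POU word ATGCAAA of OCT factors was in 2.02% of CP-only, 4.13% of all and 10.6% of hESC-only regions. The AP-1 word TGANTCA was in 5.04% of CP-only regions, 8.08% of all and at least 9.18% of each other single-stage set. The T-box word GGTGTG was in 12.5%, against 15.6% of all and 22.9% of MES-only regions. In 100 bp around the summit the GATA share of CP-only regions was 24.9%. A word in a window is a match of letters, not a bound site. The 16 words were chosen with earlier results of these data known.

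Over the classes of strength below, the share with a GATA word rose and that with a MEIS word was similar. Among CP-only regions with a weaker −log10 q under 5, 29.9% had a GATA word (n = 812, 26.9 to 33.2). From 5 to 10 it was 39.8% (n = 1064, 36.9 to 42.7), and at 10 or more 57.5% (n = 207, 50.7 to 64.0). For MEIS these shares were 24.0%, 26.8% and 23.2%, with overlapping intervals. The 25 strongest regions, all within the class of 10 or more, did not follow this, with a GATA word in 9 and a MEIS word in 11. Stronger CP-only regions were poorer in G and C, with a median GC of 48.5% at 10 or more against 53.0% under 5, and words rich in A and T are commoner in such DNA. At a GC of 40% to below 45%, 68.6% of 204 CP-only regions and 42.9% of all merged regions had a GATA word. At 45% to below 50%, these were 49.4% of 561 and 32.4%, and at 50% or more 27.4% of 1297 and 14.5%. Both words together were present in 169 CP-only regions (8.11%), against 3.99% of all.

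The CP libraries differed in these words. Regions found in CP replicate 1 and in none of the other 7 libraries had a GATA word in 17.5% (n = 9823) and a MEIS word in 15.9%. Those found in CP replicate 2 alone had them in 33.9% (n = 15746) and 25.4%. The shares of CP-only regions, 37.7% and 25.3%, were near those of CP replicate 2 alone, and the regions of CP replicate 1 alone were below all merged regions for both words. Without CP replicate 2, 20.7% of the 12037 regions then found in CP only had a GATA word, and without CP replicate 1, 34.3% of 17936. The NKX word showed no such gap, with 38.2% and 39.7%.

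**Figure D2:**
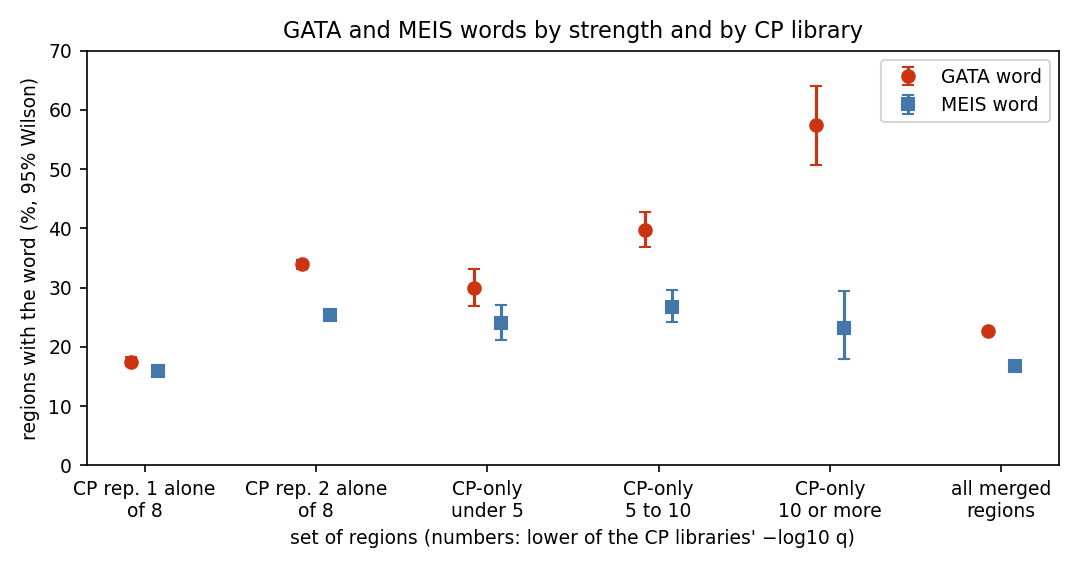
Share of regions with a GATA word (circles) and with a MEIS word (squares), with 95% Wilson intervals, in regions found in a single CP library of the 8, in CP-only regions by the −log10 q of the weaker CP library (under 5, 5 to 10, 10 or more), and in all merged regions. GATA goes from 29.9% to 57.5% with strength, MEIS stays between 23.2% and 26.8%, and CP replicate 1 alone (17.5% and 15.9%) is below CP replicate 2 alone (33.9% and 25.4%).

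Regions with peaks at 2 or more stages are not CP-only, and the share of them with a GATA word was compared between CP and the rest over libraries. It was 19.3% in CP replicate 1 and 22.3% in CP replicate 2, and ran from 15.2% to 20.3% in the 6 other libraries. CP replicate 1 lay within the range of the MES and CM libraries and CP replicate 2 above every other library. The means were 20.8% ± 2.09 (SD, n = 2) and 18.4% ± 2.29 (SD, n = 6), a difference that did not pass 0.05 (two-sided exact permutation test over 28 assignments, p = 0.214, Benjamini-Hochberg adjusted 0.214 over 2 values). Its smallest possible p is 0.0357. The share of the same regions within 50 kb of a CP-only region was 8.29% and 8.38% in CP and ran from 7.80% in hESC replicate 1 to 8.21% in CM replicate 1 in the others. As the rule placed the CP-only regions by the peaks of these same libraries, this share is a description and no test of it is given. MES and CM leaned the same way around their own regions, if by little. Near MES-only regions lay 26.0% and 25.9% of the regions of the MES libraries, against 25.8% and 25.9% in CP. Near CM-only regions lay 11.2% and 11.0% of those of the CM libraries, against 10.9% and 11.0% in CP. Near hESC-only regions lay 27.3% and 27.7% of those of the hESC libraries, against 27.5% in each MES library, so hESC replicate 1 did not lean this way.

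CP-only regions were scattered. Neighbours at most 50 kb apart were chained, and only 3 chains of 3 regions arose, holding 9 regions (0.432%), with 81 further pairs. In all, 8.21% of CP-only regions had another within that distance, against 30.7% of hESC-only, 33.9% of MES-only and 16.9% of CM-only regions, sets that are larger and so lie closer together. The median distance to the next CP-only region was 419358 bp. Other open chromatin was near. The nearest region with a peak outside CP was at a median of 3312 bp, and for 9 CP-only regions it was over 50 kb away. By chromosome, the share of merged regions that were CP-only ran from 0.315% on chromosome 19 to 0.95% on chromosome 13.

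Of the 3 clusters of 3, the tightest spanned 14315 bp of chromosome 13 in ATP8A2, a flippase gene, with 2 regions in introns and 1 in an untranslated exon, 27297 to 41612 bp from the TSS of SHISA2, an inhibitor of FGF and Wnt receptor maturation. Its regions had folds of 4.04, 4.42 and 3.70 in CP replicate 1 and of 4.22, 3.63 and 5.71 in CP replicate 2. Within 50 kb of this cluster, its own regions included, each CP library had 13 peaked regions, against 9 in both MES libraries and CM replicate 1, 5 and 7 in hESC and 5 in CM replicate 2. The 3 regions of each cluster count for CP alone by the rule, so part of each such gap is the rule itself. The cluster near PRSS58 and PRSS1 on chromosome 7 spanned 60756 bp, at least 210899 bp from any protein-coding TSS, with folds of 3.78 to 4.90 in CP replicate 1 and 4.65 to 5.22 in CP replicate 2. Within 50 kb of it, its own regions included, 13 and 19 regions were peaked in CP. These were 13 and 16 in hESC, 11 and 15 in MES and 10 and 6 in CM. The cluster on chromosome 8 spanned 75490 bp within introns of EYA1, a transcriptional coactivator. Its regions had folds of 5.13, 4.62 and 4.91 in CP replicate 1 and of 3.95, 5.13 and 5.90 in CP replicate 2, and lay 47581, 3319 and 22284 bp from a TSS. Within 50 kb of it, its own regions included, 12 and 13 regions were peaked in CP, 8 in each hESC library, 6 and 9 in MES and 4 and 3 in CM. The next in number of regions were pairs 495 and 596 bp apart in introns of XXYLT1 and ARL6.

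Of the CP-only regions, 1302 had a protein-coding TSS within 100 kb, at 1197 genes. These are 6.6% of the 18125 genes with any merged region. Most genes had a single one, 85 had 2 and 10 had 3. The 10 were EYA1, MCC, PDE1A, PTPRM, SHISA2, CNTNAP2, MAPKAP1, SORL1, FHOD3 and NTM. FHOD3 encodes a formin of the cardiac sarcomere, PDE1A a phosphodiesterase of cyclic nucleotides, and CNTNAP2, NTM and PTPRM are adhesion or receptor genes. They had between 25 merged regions at SHISA2 and 148 at NTM. Genes with a CP-only region had a median of 19 merged regions, against 7 for all genes with a region. Among genes with 2, those with the strongest regions were TMEM178A, CBLN2, CDH11, SCYL3 and TMTC2. In CDH11, which encodes a cadherin of mesenchymal cells, the 2 intronic regions had folds of 5.23 and 5.59 in CP replicate 1 and of 6.66 and 9.19 in CP replicate 2. Of the 1197 genes, 947 (79.1%) had a peak within 1 kb of a TSS in all 8 libraries, near the 74.2% of all genes with a region, and 75 had one in no library.

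Among cardiac progenitor transcription factors, 9 of 36 genes had a CP-only region (25.0%, against 6.6% of all genes), with 12 regions in all. These genes also had more merged regions, a median of 25, and 12.4 of each 1000 were CP-only, against 6.78 over all genes. EYA1 had 3 and ISL1 had 2. At ISL1, a region 1457 bp from the TSS had folds of 3.31 in CP replicate 1 and 3.47 in CP replicate 2, and a region 84790 bp away had 3.85 and 4.65. The ISL1 promoter itself had a peak in all 8 libraries. ZFPM2 had a region 67945 bp from a TSS with folds of 5.34 and 5.93. GATA4, a zinc finger factor of heart and endoderm, had a region 48089 bp away with 3.10 and 4.22. EYA2 had folds of 4.01 and 4.58 at 3649 bp, and ZFPM1 3.04 and 3.21 at 34577 bp. TBX20, a T-box factor of the heart, had 3.20 and 3.93 at 88966 bp, and TBX2 2.43 and 4.46 at 14747 bp, in an intron of BCAS3. HAND1, HAND2, GATA6, TBX5, MEF2C and NKX2-5 had no CP-only region among 14 to 56 merged regions each. At the share over all genes, so few regions would mostly hold none.

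Genes of signalling pathways were counted in the same way, beside 6.6% of all genes and 6.78 of each 1000 regions. Of 27 FGF pathway genes, 5 had a CP-only region (18.5%), with 12.2 per 1000 regions. Of these FGF1 and FGF12 encode members of the FGF family, while SPRY1, SPRY4 and DUSP6 encode inhibitors that the pathway itself induces. A region 57 bp from a TSS of SPRY1 had folds of 3.02 in CP replicate 1 and 2.65 in CP replicate 2. SPRY1 had a peak within 1 kb of a TSS in all 8 libraries, so its promoter was not open in CP alone. SPRY4 had regions at 77690 and 81135 bp, with folds of 3.17 and 3.48 in CP replicate 1 and of 4.44 and 3.44 in CP replicate 2. DUSP6 had a region at 15291 bp that was higher in CP replicate 1, 5.83 against 3.55. Of 38 BMP and TGF-beta pathway genes, 7 had a region (18.4%, 8.87 per 1000). They were the ligand genes BMP5 and GDF6, the receptor genes BMPR1B and ACVR2A, the extracellular regulator BMPER and the targets ID2 and MSX1. The region in BMPR1B had folds of 3.98 and 10.3, and that near MSX1 had 4.27 and 8.00. In both, CP replicate 2 was higher. Of retinoic acid pathway genes with a region, 3 of 18 had a CP-only one (16.7%, 9.41 per 1000), among them RARB and, with 2 regions, NRIP1. The region 51414 bp from NRIP1, a corepressor of nuclear receptors, had folds of 3.35 in CP replicate 1 and 7.73 in CP replicate 2. Wnt pathway genes, WNT5B and FZD7 among them, reached 2 of 37 (5.41%), and Notch genes 1 of 20, RBPJ.

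Genes listed for other fates were also among them. Of 17 endoderm factors, 5 had a CP-only region (29.4%, 17.2 per 1000 regions), among them HNF4A, AFP, CXCR4 and NKX2-1. CXCR4 is not a gene of endoderm alone, as the study reports that its expression peaks in CP. The region in an intron of AFP, the fetal plasma protein of liver and yolk sac, had folds of 4.91 in CP replicate 1 and 8.37 in CP replicate 2, while the AFP promoter had a peak in none of the 8 libraries. Of the endoderm markers, the promoter of APOA1 had a peak in both CP libraries and CM replicate 1 only, while that of FOXA2 had a peak in every library except CM replicate 2. Their part in the endoderm count was not tested. Sarcomere and contraction genes had 3 of 31 (9.68%), in ACTN2 with folds of 4.42 and 5.32, in CACNA1C with 3.93 and 5.07 and 1961 bp from MYH6 with 2.93 and 2.57. Pluripotency factors had 2 of 18, PRDM14 and SALL4. Endothelial and blood factors had 1 of 20, LMO2, and epicardial, stromal and smooth muscle genes had 2 of 22, BNC2 and COL1A1. Primitive streak and early mesoderm factors (0 of 18), neural ectoderm factors (0 of 18) and HOX cluster genes (0 of 38) had none. Over all genes with a region the share was 6.6%, with 6.78 of each 1000 regions CP-only. The lists with none held 264, 366 and 156 merged regions, where that share would give only a few. These lists were written with earlier results known, so the counts are descriptions.

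The promoters of marker genes did not separate the stages well, as most were open in all. Among 10 cardiac progenitor markers, 7 promoters had a peak in all 8 libraries. HAND2 had none in CP replicate 1 and hESC replicate 1, GATA4 none in hESC replicate 1 and PDGFRA none in MES replicate 2. The promoter of the stem cell factor NANOG had a peak in the hESC and MES libraries only, that of MYH6 in CP replicate 2 and both CM libraries, and that of NPPA in CM replicate 1 alone. Of the endothelial markers, the promoters of CDH5 and EMCN had no peak in any library, and that of SOX17 had one in all 8. The TIE1 promoter had a peak in 4 libraries, CP replicate 1 among them. The PECAM1 promoter had one in 2, hESC replicate 2 and MES replicate 1.

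Some CP-only regions were alike in sequence, a pattern looked for after the data had been seen. Of 2083, 170 (8.16%, 95% Wilson interval 7.06 to 9.42) had a window that aligned over at least 100 bp with that of another CP-only region on either strand (blastn, e-value of at most 1e-10). In the larger sets, where more partners are on offer, this was 23.2% of hESC-only and 18.5% of MES-only regions, yet 1.70% of the 3000 CM-only regions. The alike regions fell into 39 groups, the largest with 38 members on 13 chromosomes, and 7 groups had at least 5. Alignment to other regions shows copies of related DNA, whose family was not determined here as no repeat annotation was used. In 1 group of 6, near TECRL, UGT2A2, ADAMTS19, PTER, OR5A2 and NALF1, every window held a GATA word, with a median identity of 86.5%. In a group of 5, near PRDX6, PABPC4L, ZNF131, TRHDE and CYP2A7, 4 windows did, with a median identity of 88.5%. Folds near TECRL were 5.54 in both CP libraries, and near TRHDE 5.55 and 15.6.

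Relatives of the group of 5 were also accessible beyond the CP-only set. Apart from CP-only regions, 134 merged regions aligned with the window of the group that had the most alignments within it. Of these, 123 had a peak in CP replicate 2 (91.8%) and 65 in CP replicate 1 (48.5%), against 40.5% and 33.5% of all merged regions. In CM these shares were 53.0% and 26.9%, in MES 40.3% and 56.0%, and in hESC 11.2% and 26.9%, where all merged regions have 34.5% and 53.1%. Of the 8 libraries, CP replicate 2 was highest and hESC replicate 1 lowest. The group was chosen for its CP peaks, and a gap between the CP libraries, of 91.8% to 48.5%, stands beside the difference between stages. Of the 7 groups of at least 5, this was the only one whose relatives had their highest share in a CP library. In the other 6 it was MES replicate 2 in 4 groups and hESC replicate 2 in 2. The 1322 relatives of the largest group had peaks most often in MES replicate 2 (78.1%) and hESC replicate 2 (73.5%), against 51.1% and 64.9% in CP.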

How the data were processed

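ATAC-seq peaks of 8 libraries were analysed. Per the labels and the study's methods, the authors aligned reads to hg38 with BWA 0.7.13, kept primary alignments of a mapping quality over 30, used Picard against duplicates, and ran MACS2 2.1.0 on every library by itself (q-value of 0.01, shift of 100 bp, extension to 200 bp). The deposited lists give each peak's fold over its local background (a ratio), its −log10 p and −log10 q, and a display score that was not used. Replicates were not pooled.

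Peaks were merged (equal to bedtools 2.31.1 merge), and regions placed at the summit of their strongest peak against GENCODE 44. A promoter lies within 1 kb of a protein-coding TSS, and genes were assigned within 100 kb. Words were searched in 200 bp around the summit on both strands of hg38. Scripts ran in Python 3.11.15 with scipy 1.17.1 and pysam 0.24.0, and were tested on simulated data. Wilson intervals cover counting error only. Libraries were compared by exact permutation in 2 shares, and the test of nearness to CP-only regions is not given, as its regions come from the rule. The labels do not say that replicates came from separate differentiations, so the p-values measure only the spread between these libraries, which may be technical.

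The region set, gene lists and words were chosen with earlier results of these data known. Genes were named as those nearest the 25 strongest regions, the 15 with the most regions, the 5 largest clusters and up to 5 of each list. The ISL1 sequence, the strongest promoter regions, regions over 100 kb from a gene, the absent regulators and the similarity search (blastn 2.17.0) were chosen after the values were seen. Alternatives were the q threshold, list length, background, merging, windows, distances and leaving out each library. Some genes and sequences are not reported here.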

Additional observations from a re-analysis of the deposited data

How the results depend on the processing

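The number of CP-only regions, 2083, depended on list length and on single libraries. It was 1242 with lists of equal length (the 55777 strongest peaks of each) and 9087 when absence was asked only of the parts shared by both replicates of a stage. Leaving out each library in turn gave 2179 to 17936 regions, with 17936 without CP replicate 1 and 12037 without CP replicate 2, where a single CP library is asked for. The promoter share ran from 2.62% to 3.22% with a library left out and was 8.55% when every annotated transcript counted, not only protein-coding ones. The GATA share was 41.8% at a −log10 q of at least 5, 40.3% with lists of equal length and 24.9% in 100 bp windows. It ran from 20.7% (without CP replicate 2) to 39.4% with a library left out, and was 34.3% without CP replicate 1. The share in clusters was 0.144% at a gap of 25 kb and 1.30% at 100 kb. It ran from 0.413% to 24.6% with a library left out, with 24.6% and 15.4% without CP replicate 1 and 2, 2.14% without MES replicate 2 and 1.04% without CM replicate 1. Genes with a CP-only region numbered 1254 to 6475, with 6475 and 5353 without CP replicate 1 and 2. The share found again in CP was 34.8% (found on replicate 1) and 13.5% (on replicate 2) at a −log10 q of at least 5, and 32.8% and 28.2% with lists of equal length. The share similar to another region was 9.99% at a minimum aligned length of 50 bp, an alternative chosen after seeing the data. The difference in nearness to CP-only regions, a description since the rule placed them, was 0.277 percentage points at 50 kb, 0.412 at 100 kb and 0.169 at 25 kb, and ran from 0.224 to 0.317 with a library left out. The difference in GATA words ran from 0.908 to 3.86. Of the values under alternatives for these results, 63 stayed on the side of the threshold, within 1.5 times for a count or within the interval for a share. Another 24 moved beyond that. The 63 include values of the nearness, and 3 further values, in neither count, are also of the nearness and changed side of the threshold. No test of the nearness is given, as the rule placed its regions. The difference in GATA words did not change direction. The cause of the changes was not tested.

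Of the 15 genes with the most regions, 1 stayed within 1.5 times its count with lists of equal length and 7 had no region left, while 11 stayed at a −log10 q of at least 5. Cardiac progenitor factors with a CP-only region numbered 9 to 25 with a library left out. No pairing by replicate number was seen in the lists, as the replicate differences of 2 stages correlated at −0.0215 to 0.0337 over regions. Whether libraries of the same replicate number share a differentiation or batch is not stated in the labels and was not tested. With the replicate block, the differences of 0.277 and 2.39 are the same by construction, and that of 2.39 in GATA words had an exact permutation p of 0.1875. The lists hold no read counts, so a missing peak cannot be told apart from one under the threshold.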
